A study of Arabidopsis thaliana with 18 samples.

Results

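The comparison described here is the response of Arabidopsis petioles to a dense canopy minus their response to a low red to far-red ratio (R:FR). It was computed per probe set as canopy minus single plants, minus low R:FR minus control light, on the log2 scale, so a positive value means a higher change in the canopy than in low R:FR. The arrays were chosen by their labels and number 12 of the 18 in the series, 3 in each of 4 groups, on Affymetrix ATH1 arrays. All plants were Arabidopsis thaliana Col-0. Seeds had 3 d of cold at 4 °C, plants went into their own pots at 10 d, and the growth chamber gave 9 h of light (180 µmol per m2 per s) and 15 h of dark at 20 °C and 70% humidity up to day 28. Canopy plants had been set at 2066 plants per m2 once potted, and single plants had been kept apart. Both were 37 d old at harvest, under control light, and 4 plants with 2 young petioles each were pooled per biological replicate. Control light and low R:FR plants grew singly and were harvested at an age of 29 d after 24 h of their light treatment. Whether the light replicates were separate pools is not stated in the protocols, and p-values then measure only the spread between these samples, which may be technical. The canopy and light experiments thus also differed in plant age and in the length of exposure, and these cannot be told apart from the difference between canopy and low R:FR.

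Leaves reflect and transmit far-red light while absorbing red and blue, so a neighbour lowers R:FR. Phytochromes sense this drop, and growth of the petiole through auxin, gibberellin and cell wall loosening is a well known response. A closed stand also lowers blue light and total light, and brings changes in humidity, touch and the supply of water and nutrients.

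Where canopy and low R:FR parted, transcripts of the low-energy list genes AT3G15450 and AKINBETA1 were higher in the canopy than on single plants. The same held for the expansin gene EXPA8 and the dehydrin genes LTI30 and COR47. Canopy and low R:FR levels of EXPA8, LTI30 and COR47 were not called different. MGL of the low-energy list and COR15A, listed with the dehydrin genes, had called differences of the other sign. Levels of flavonoid genes (UGT78D2, CHIL and AT1G06000), of the wall acetylation family gene TBL26 and of the antenna gene LHCB4.3 were lower in the canopy than on single plants. In the light experiment, UGT78D2 and TBL26 rose in low R:FR against control light. The shade marker IAA29 rose in both, by sizes whose difference was not called. limma called a difference between the 2 changes for 473 of 22746 probe sets (adjusted p under 0.05, 2.08%), 221 of them higher (0.972%) and 252 lower (1.11%), and 314 by at least 1 on the log2 scale (1.38%). With 1 probe set a gene, 205 of 13355 genes were called (1.54%), 108 higher and 97 lower, of which 38 carry a symbol other than their locus in the gene table. Genes without one are given by locus.

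The canopy changed 968 probe sets against single plants (4.26%), 479 higher (2.11%) and 489 lower (2.15%). Low R:FR changed 197 against control light (0.866%), 141 higher (0.62%) and 56 lower (0.246%). These comparisons share no arrays. Both called 68 probe sets, 7.02% of the canopy calls and 34.5% of the low R:FR calls, 39 of them with the same sign and 29 with opposite signs. Across all probe sets the 2 changes had a Pearson correlation of 0.07 and a Spearman correlation of 0.03, given as a description, since probe sets of an array share its errors. The 473 called differences fell into the 29 with opposite signs (6.13%), 298 where only the canopy change was called (63.0%), 55 where only the low R:FR change was called (11.6%), and 91 where neither was called alone (19.2%). None of the 39 probe sets with the same sign was among them. Sizes differed between these classes as their rule makes them: where only the canopy change was called, the median absolute change was 1.01 in the canopy and 0.273 in low R:FR, and where only low R:FR was called it was 0.252 and 1.04.

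**Figure D1:**
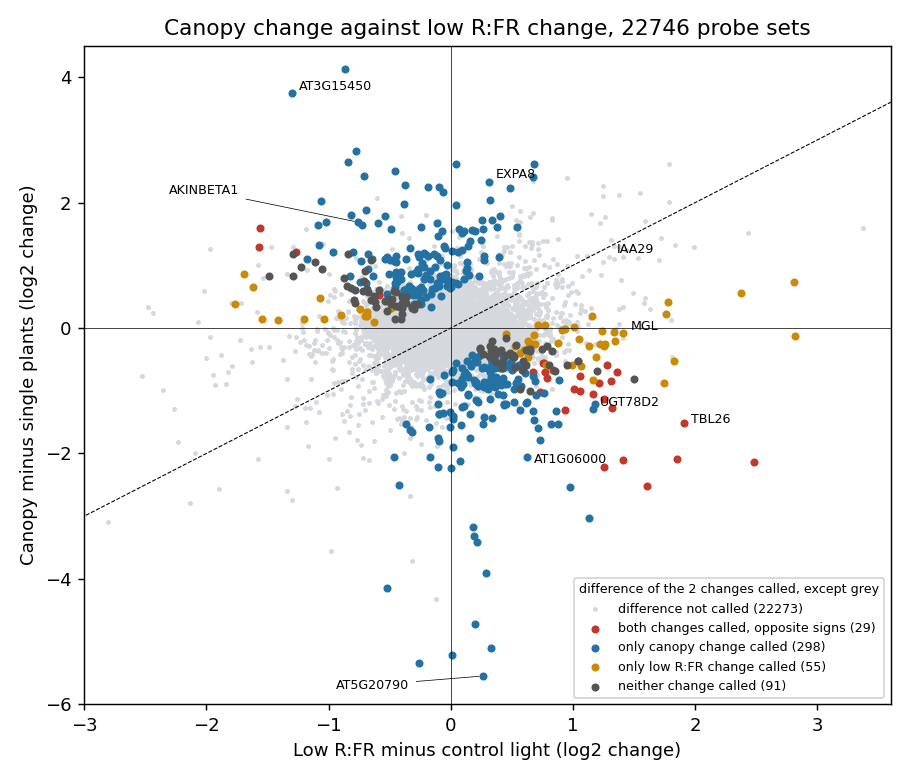
Change in low R:FR against control light (x axis, log2) and in the canopy against single plants (y axis, log2) for 22746 probe sets, 1 point each, with the dashed line where both are equal. Coloured points are the 473 called differences by class: the 29 red ones lie at the upper left or lower right, and the 298 blue ones spread along the y axis.

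The low-energy list holds genes that plants are known to switch on when sugar or light runs short. AT3G15450, a member of this list, had the highest difference of all. It read 1.21, 2.16 and 2.4 on the log2 scale on the 3 single plant arrays, 4.3, 6.73 and 5.98 in the canopy, 4.63, 4.94 and 5.41 in control light, and 3.42, 3.58 and 4.07 in low R:FR. All canopy arrays lay above all single plant arrays, and all low R:FR arrays lay below all control light arrays. The canopy change was 3.75 ± 0.46 (SE here and for every change below, limma adjusted p = 0.00012), the low R:FR change -1.3 ± 0.46 (0.24) and their difference 5.05 ± 0.64 (0.00055). AKINBETA1, which encodes a β subunit of the energy-sensing kinase SnRK1, read 1.82, 1.83 and 1.4 on single plants, 3.51, 2.99 and 3.63 in the canopy, 2.15, 2.38 and 3.08 in control light, and 1.72, 1.69 and 1.93 in low R:FR. It showed the same arrangement, with no overlap between treated and control arrays in either experiment. AKINBETA1 rose 3.24-fold in the canopy, and its difference was 2.45 ± 0.32 (limma adjusted p = 0.00059).

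A methionine-degrading lyase is encoded by MGL, which read 5.7, 5.7 and 5.74 on single plants, 5.66, 5.68 and 5.55 in the canopy, 5.47, 5.7 and 5.01 in control light, and 6.96, 6.78 and 6.68 in low R:FR. Its low R:FR arrays stood above all others, whereas canopy and single plants were within 0.08 of each other in the mean. MGL rose in low R:FR by 1.41 ± 0.15 (limma adjusted p = 0.00014), with a canopy change of -0.08 ± 0.15 and a difference of -1.49 ± 0.21 (0.0013). BZIP53, a bZIP factor gene, had a difference of 0.64 ± 0.3 that was not called (0.38). Of the 4 named members, out of 17 listed, 2 were thus called higher and 1 lower, with a median of 1.55 against 0.01 for all probe sets. Of all genes, 0.809% were called higher and 0.726% lower. Lists here and below were chosen with earlier results of these data known, so their counts and medians are descriptions only.

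Autophagy recycles cell contents through vesicles coated with ATG8 proteins. Of 8 named ATG genes, 1 was called higher and 0 lower, against 0.809% and 0.726% of all genes. It was ATG8C, at 0.9 ± 0.22 (limma adjusted p = 0.048). The call ended in 10 of 12 fits that left out 1 array (highest adjusted p 0.12, without single replicate 3). The 8 differences lay between 0.35 and 1.19, with a median of 0.68 against 0.01 for all probe sets. ATG8E had 1.19 ± 0.32 (adjusted p = 0.068) and ATG3, whose product conjugates ATG8 to lipid, 0.79 ± 0.23 (0.085). Means of ATG8E were 1.07 on single plants and 1.19 in low R:FR, near the floor of the arrays, so the size of its difference is uncertain. ATG3 fell in low R:FR by 0.72 on the log2 scale (0.045, lost in 8 leave-outs, highest adjusted p 0.23 without control light replicate 3) and had a canopy change of 0.07.

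Most genes with the highest differences have no symbol in the gene table. AT2G41250 read 3.96, 3.89 and 3.67 on single plants, 6.23, 6.37 and 6.43 in the canopy, 4.48, 5.28 and 5.78 in control light, and 4.62, 4.62 and 4.93 in low R:FR. Here the canopy arrays stood above all others, and low R:FR and control light overlapped. Its difference was 2.96 ± 0.38 (limma adjusted p = 0.00059). AT2G20670 (3.6 ± 0.6), AT1G49500 (3.14 ± 0.56), AT1G23390 (2.72 ± 0.49), AT5G11070 (2.67 ± 0.37), AT5G19120 (2.62 ± 0.49), AT5G25280 (2.57 ± 0.31) and AT2G05540 (2.37 ± 0.37) had called rises in the canopy and low R:FR changes between -1.02 and -0.38 that were not called. AT4G14270 (2.46 ± 0.51, adjusted p = 0.015) was called in neither change alone, at 1.18 and -1.29. AT1G56220 was the 1 gene among the 12 highest with both changes called, at 1.21 ± 0.24 in the canopy (0.0056) and -1.26 ± 0.24 in low R:FR (0.014), the latter call ending in 4 of 12 leave-outs (highest adjusted p 0.093, without low R:FR replicate 2). Without control light replicates 1 and 3, adjusted p of the difference was 0.054 for AT5G19120 and AT4G14270 and 0.052 for AT2G05540.

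**Figure D2:**
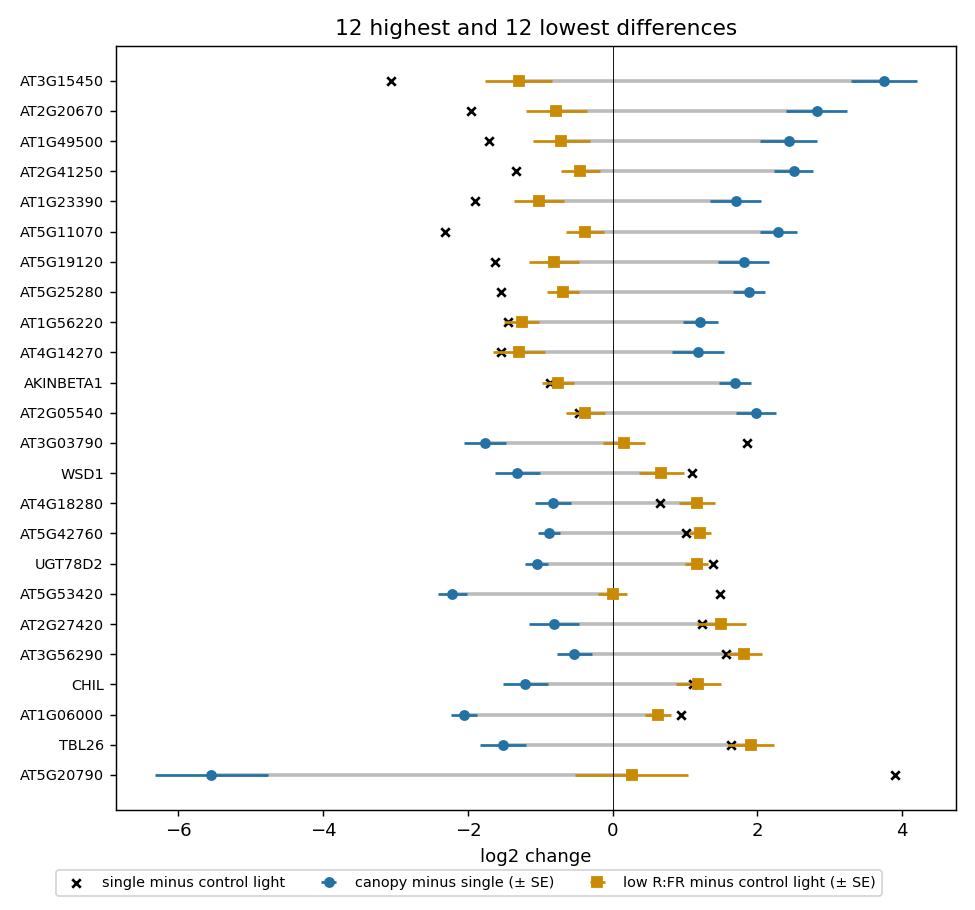
Log2 change in the canopy (circles) and in low R:FR (squares), each ± SE from limma, for the genes with the 12 highest and 12 lowest called differences, joined by grey bars. Crosses give single plants at 37 d minus control light plants at 29 d: they lie left of 0 for the 12 highest and right of 0 for the 12 lowest, from -3.07 for AT3G15450 to 3.9 for AT5G20790.

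The lowest difference belonged to AT5G20790. It read 7.41, 6.3 and 7.54 on single plants, 1.9, 1.19 and 1.51 in the canopy, 1.9, 5.03 and 2.63 in control light, and 4.02, 4.38 and 1.94 in low R:FR. Single plants alone were high on every array, canopy arrays were near the low end of the arrays, and the 29 d arrays spread widely and overlapped. The difference of -5.81 ± 1.1 (limma adjusted p = 0.0086) came with a canopy change of -5.55 ± 0.78 and a low R:FR change of 0.26 ± 0.78. Without control light replicates 1 and 3 it was -3.97, with an adjusted p of 0.16.

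Flavonoids are phenolic pigments that screen light and are known to build up in strong light. Among 5 named genes of the flavonoid list, out of 21, 3 were called lower and 0 higher, against 0.726% and 0.809% of all genes. The list's median was -2.22, against 0.01 for all probe sets. UGT78D2, a flavonoid 3-O-glucosyltransferase gene, read 6.1, 6.13 and 5.87 on single plants, 5.03, 5.09 and 4.8 in the canopy, 4.78, 4.88 and 4.25 in control light, and 5.7, 5.85 and 5.85 in low R:FR. Its canopy arrays were all below the single plant arrays and its low R:FR arrays all above those in control light. Both changes were called, a fall in the canopy by 1.05 on the log2 scale (limma adjusted p = 0.00089) and a rise of 1.16 ± 0.16 in low R:FR (0.0014), and the difference was -2.22 ± 0.23 (0.00011). CHIL, a chalcone isomerase-like gene, read 4.55, 5.72 and 5.25 on single plants, 3.78, 4.04 and 4.08 in the canopy, 4.54, 4.51 and 3.14 in control light, and 5.09, 5.13 and 5.52 in low R:FR. The groups were arranged as for UGT78D2, but the rise of CHIL in low R:FR of 1.18 ± 0.31 was not called (0.096), and its difference was -2.39 ± 0.44 (0.0071). Its fall in the canopy (-1.21 ± 0.31, 0.035) lost the call in 5 leave-outs (highest adjusted p 0.15, without single replicate 2).

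AT1G06000, a member of the flavonoid list, read 5.7, 6.04 and 6.11 on single plants, 3.98, 3.59 and 4.09 in the canopy, 5.12, 4.93 and 4.97 in control light, and 5.54, 5.82 and 5.52 in low R:FR. The canopy arrays were the lowest of the 4 groups, with no overlap. AT1G06000 fell 4.17-fold in the canopy and had the smallest adjusted p of the named genes for the difference, -2.68 ± 0.26 (limma adjusted p = 5.8e-05). UGT78D1, a flavonol rhamnosyltransferase gene, fell in the canopy by 1.01 on the log2 scale (0.0062), with a difference of -0.99 ± 0.28 that was not called (0.084). DFR, of anthocyanin synthesis, had a difference of -0.21 at a mean level of 1.05, near the floor of the arrays. Of 47 genes with a UGT symbol, UGT78D2 and UGT84A3, which acts on hydroxycinnamic acids, were called lower and 0 higher, with a list median of 0.02. Of all genes, 0.726% were called lower and 0.809% higher. This list of UDP-glycosyltransferases took genes by symbol, so it holds no gene given only by its locus, such as AT1G06000. UGT84A3 had a difference of -1.23 ± 0.19 (0.0024), with means of 1.14 in the canopy and 1.38 in control light that are also near the floor, so its size is uncertain.

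**Figure D3:**
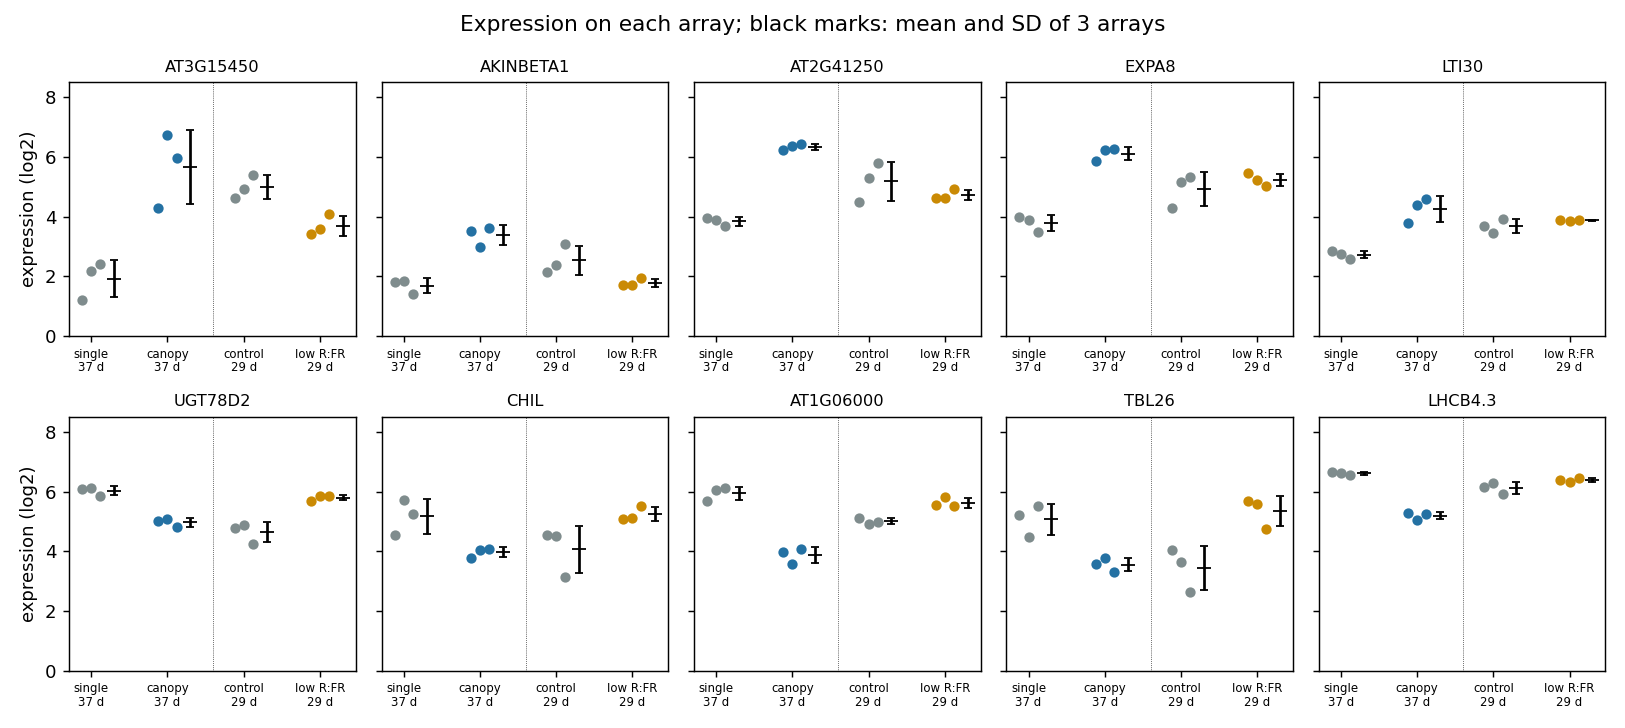
Expression (log2) on each of the 12 arrays for 10 genes, with group and plant age on the x axis and the mean and SD of 3 arrays as black marks. In the upper row the canopy arrays lie above the single plant arrays, and in the lower row they lie below them, while UGT78D2, CHIL, AT1G06000, TBL26 and LHCB4.3 in low R:FR lie above control light.

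The called members of the cell wall lists were TBL26, EXPA8 and EXPB3. TBL26, of the trichome birefringence-like family that acetylates wall polysaccharides, read 5.21, 4.49 and 5.52 on single plants, 3.59, 3.77 and 3.31 in the canopy, 4.06, 3.64 and 2.62 in control light, and 5.69, 5.59 and 4.76 in low R:FR. Neither pair of groups overlapped, and they moved in opposite directions. TBL26 fell 2.87-fold in the canopy (limma adjusted p = 0.0094) and rose 3.75-fold in low R:FR (0.0062), a difference of -3.43 ± 0.45 (0.00064). The canopy call ended in 1 leave-out, without single replicate 3 (adjusted p = 0.064). None of the other 24 named pectin and wall acetylation genes was called, and the list's median was 0.03. Of all genes, 0.809% were called higher and 0.726% lower.

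Of 18 named expansin and expansin-like genes, whose products loosen walls, 1 was called higher and 1 lower. Over all genes the shares were 0.809% and 0.726%, and the list's median was -0.08. EXPA8 read 3.98, 3.88 and 3.47 on single plants, 5.87, 6.22 and 6.25 in the canopy, 4.29, 5.15 and 5.33 in control light, and 5.45, 5.22 and 5.03 in low R:FR. Every canopy array exceeded every array of the other 3 groups. EXPA8 rose 5.05-fold in the canopy and had a difference of 2.02 ± 0.34 (limma adjusted p = 0.0043), with 0.31 ± 0.24 in low R:FR (0.68). EXPB3 had a difference of -1.39 ± 0.32 (0.034) with neither change called, and lost the call in 8 of 12 leave-outs (highest adjusted p 0.096, without single replicate 3). EXPA4 fell in the canopy by 1.56 on the log2 scale (0.002), with a difference of -1.22 ± 0.38 (0.12). None of the 9 genes with an XTH symbol, whose products remodel wall xyloglucan, was called (median 0.0). XTH19 had the largest difference of these, -1.07 ± 0.62 (0.53). EXGT-A3, a xyloglucan endotransglucosylase gene of the same family, has another symbol and so was missed by that list. Chosen after values were seen, EXGT-A3 rose by 1.62 ± 0.12 in the canopy and differed by 1.24 ± 0.16 (limma adjusted p = 0.00067). Its canopy and low R:FR levels were not called different (-0.09, limma adjusted p = 0.87). Single plants lay below control light for EXGT-A3, by a log2 change of -1.32 ± 0.12.

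Dehydrins protect cells during water loss and cold. Of 4 named water deficit and cold genes, out of 11, 2 were called higher and 1 lower, against 0.809% and 0.726% of all genes. LTI30 read 2.83, 2.73 and 2.59 on single plants, 3.78, 4.4 and 4.6 in the canopy, 3.68, 3.45 and 3.92 in control light, and 3.9, 3.86 and 3.88 in low R:FR. Only single plants stood apart from the other 3 groups, which overlapped. Its difference was 1.35 ± 0.25 (limma adjusted p = 0.0086), and that of COR47 0.81 ± 0.19 (0.038), which lost the call in 8 of 12 leave-outs (highest adjusted p 0.097, without low R:FR replicate 1). COR15A, for a chloroplast protein induced by cold, read 6.77, 7.09 and 6.98 on single plants, 6.3, 6.77 and 6.91 in the canopy, 7.38, 7.06 and 6.2 in control light, and 8.06, 7.91 and 8.06 in low R:FR. It was high in low R:FR only, and its canopy and single plant arrays overlapped. The difference of -1.42 ± 0.32 (0.024) lost the call in 5 of 12 leave-outs (highest adjusted p 0.062, without canopy replicate 1), and its rise in low R:FR of 1.13 ± 0.22 (0.02) in 4 (0.08, without low R:FR replicate 3). Without control light replicates 1 and 3, adjusted p was 0.13 for LTI30 and 0.16 for COR47.

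LHCB4.3, an antenna protein gene of photosystem II, read 6.66, 6.61 and 6.56 on single plants, 5.29, 5.05 and 5.24 in the canopy, 6.17, 6.29 and 5.91 in control light, and 6.4, 6.32 and 6.46 in low R:FR. The canopy arrays were the lowest of the 4 groups. LHCB4.3 fell by 1.42 on the log2 scale in the canopy (limma adjusted p = 6.7e-05), and its difference was -1.69 ± 0.22 (0.00067). Its paralogues LHCB4.1 and LHCB4.2 had differences of -0.01 ± 0.12 and 0.38 ± 0.15, and RCA, encoding Rubisco activase, of -0.33 ± 0.13, none of them called. PORB, of chlorophyll synthesis, fell in low R:FR by 1.11 on the log2 scale (0.018, lost in 3 leave-outs, highest adjusted p 0.13 without low R:FR replicate 2), and its difference of 0.92 ± 0.31 was not called (0.16).

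Among light signalling genes 2 of 4 named members, out of 23, were called lower, against 0.726% of all genes. AT3G44450 had a difference of -1.51 ± 0.27 (limma adjusted p = 0.0054) and fell in the canopy by 0.93 on the log2 scale. AT3G52740 had -0.79 ± 0.19 (0.043), a call lost in 9 of 12 leave-outs (highest adjusted p 0.11, without single replicate 3). HYH, the homologue of the light signalling factor HY5, rose in low R:FR by 1.41 ± 0.29 (0.028) with a canopy change of -0.15 ± 0.29, and the difference of -1.56 ± 0.41 missed the threshold (0.062). The low R:FR call of HYH ended in 5 leave-outs (highest adjusted p 0.16, without control light replicate 3). GI, a clock and photoperiod gene, read 3.71, 3.61 and 3.79 on single plants, 2.48, 2.81 and 2.99 in the canopy, 2.83, 2.89 and 2.6 in control light, and 2.91, 3.38 and 2.85 in low R:FR. Single plants were higher than all 9 other arrays. GI fell in the canopy by 0.95 on the log2 scale and had a difference of -1.22 ± 0.2 (0.0041), with an adjusted p of 0.058 without control light replicates 1 and 3.

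**Figure D4:**
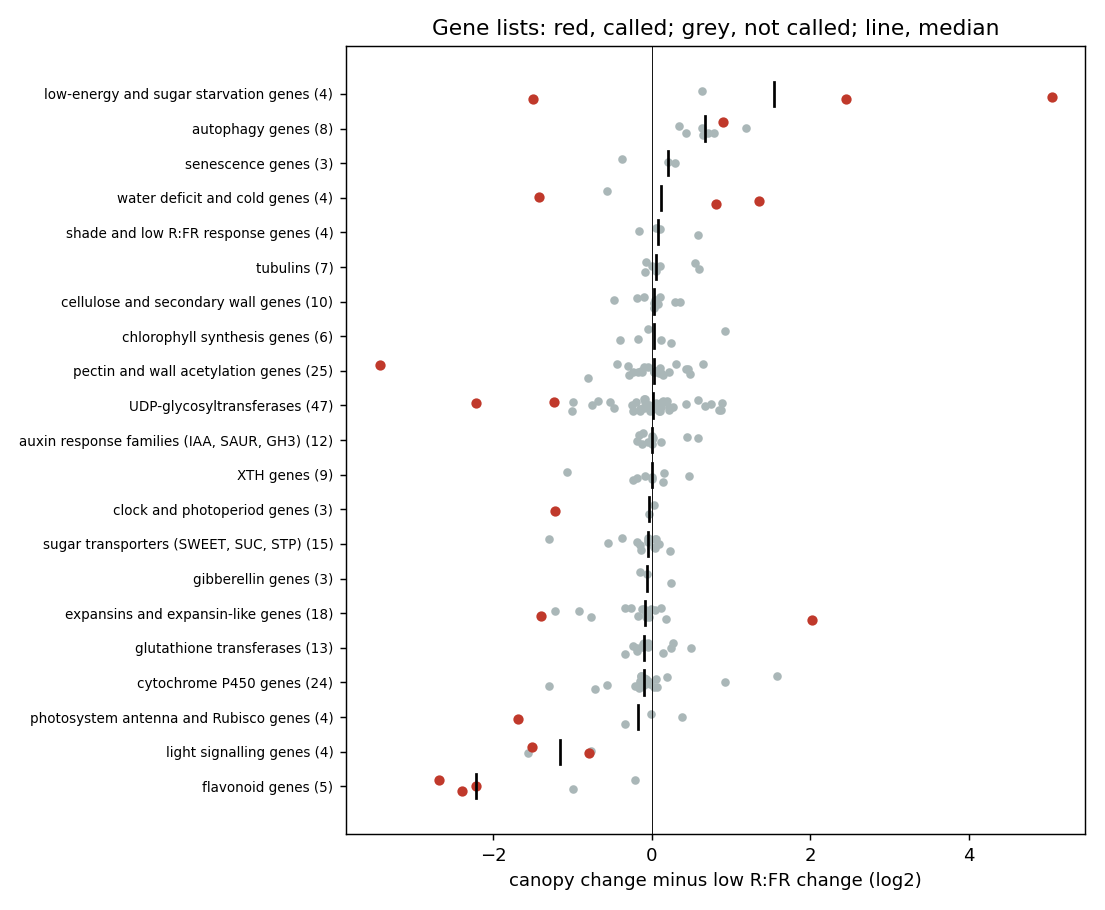
Canopy change minus low R:FR change (x axis, log2) for the named members of 21 gene lists (number of named members in brackets). Red points are called, grey points are not, and the vertical bar is the list's median: it lies at -2.22 for flavonoid genes, -1.15 for light signalling, 0.68 for autophagy and 1.55 for low-energy genes, and between -0.17 and 0.21 for the others.

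No difference was called among the shade genes. Of 4 named genes of the shade and low R:FR list, out of 23, and 12 of the auxin response families, 0 were called, with medians of 0.08 and 0.01. The auxin families held no SAUR gene. limma also called 0 of 9 genes with an XTH symbol (EXGT-A3 not among them), 10 cellulose genes, 7 tubulins, 6 chlorophyll synthesis genes and 3 senescence genes. Nor did it call any of 3 gibberellin genes (all GID1 receptor genes), 15 sugar transporters (no SUC or STP gene), 24 cytochrome P450 genes and 13 glutathione transferases. Such lists took genes by symbol, which 1605 of 13355 genes carry, so 0 calls do not speak for a whole family or pathway. Over these 11 lists, 13 of 103 genes had an unadjusted p under 0.05, against 12.7% of all probe sets. The 2 named glucosinolate genes, BCAT4 and UGT74B1, had differences of -0.65 ± 1.35 and 0.22 ± 0.24. The largest differences in the 11 lists without a call included TUB5 at 0.6 ± 0.19 (limma adjusted p = 0.14), GID1A at 0.24 ± 0.22 (0.73) and SWEET1 at -1.3 ± 0.44 (0.17). CYP71B23, of the cytochrome P450 list, had 1.58 ± 1.21 (0.68), and GSTF4, a glutathione transferase gene, 0.5 ± 0.21 (0.3). CSLD2 of the cellulose list had -0.48 ± 0.22 (0.37), and SAG29 of the senescence list -0.37 ± 0.14 (0.26). IAA29, an auxin-inducible repressor gene, read 0.96, 1.15 and 0.79 on single plants, 2.0, 2.09 and 2.23 in the canopy, 1.15, 1.11 and 1.39 in control light, and 3.08, 2.21 and 2.26 in low R:FR. Both treated groups lay above their controls and overlapped each other. All control arrays lay under 1.5, near the floor of the arrays where differences are compressed, so the sizes of both rises and of their difference are uncertain. It rose by 1.14 ± 0.21 in the canopy and 1.3 ± 0.21 in low R:FR, and the difference of -0.16 ± 0.3 had a 95% interval from -0.78 to 0.47 (limma adjusted p = 0.91). WES1, a GH3 gene of auxin conjugation, rose in the canopy by 0.93 ± 0.15 and had a difference of 0.59 ± 0.21 (0.2), and HAT2, a homeodomain gene, one of 0.1 ± 0.18 (0.9).

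Both changes were called with the same sign for 14 genes, 11 higher and 3 lower, and these genes are named here after their values were seen. AT4G25260 rose by 1.44 ± 0.15 in the canopy and 1.72 ± 0.15 in low R:FR, with a difference of -0.29 and a 95% interval from -0.74 to 0.17. AT1G69570, of the clock and photoperiod list, rose by 1.31 ± 0.16 and 1.34 ± 0.16, with an interval of the difference from -0.51 to 0.46. BZIP61, a bZIP factor gene, rose by 2.13 ± 0.28 and 1.38 ± 0.28, the largest gap of the 14 at 0.75 ± 0.4 (limma adjusted p = 0.47), with an interval up to 1.6. AT4G24780 fell by 0.84 and 0.87 on the log2 scale, and AT1G67750 by 1.35 and 1.08. The low R:FR calls of BZIP61 and AT1G67750 ended in 4 and 5 leave-outs (highest adjusted p 0.16 and 0.21, both without control light replicate 3). A difference that misses the threshold does not show that the 2 changes were alike.

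Low R:FR moved some genes while the canopy did not pass the test. AT3G56290 read 6.94, 7.11 and 6.4 on single plants, 6.11, 6.37 and 6.39 in the canopy, 5.68, 5.44 and 4.65 in control light, and 7.08, 7.17 and 6.98 in low R:FR. Control light was the lowest group, and neither treated group overlapped its own control. AT3G56290 rose in low R:FR by 1.82 ± 0.24 (limma adjusted p = 0.00092) and had a difference of -2.35 ± 0.34 (0.0013). AT4G18280 rose by 1.16 ± 0.25 in low R:FR, with a difference of -2.0 ± 0.35 (0.0051), though the low R:FR call ended in 5 leave-outs (highest adjusted p 0.15, without low R:FR replicate 2). AT3G23080 and AT1G74940 fell in low R:FR by 1.76 and 1.54 on the log2 scale, with differences of 2.14 ± 0.46 (0.019) and 1.69 ± 0.37 (0.022). The call of AT3G23080 ended in 3 leave-outs (highest adjusted p 0.058, without canopy replicate 2) and that of AT1G74940 in 7 (0.067, without low R:FR replicate 2). Their low R:FR calls ended in 3 (0.075, without control light replicate 3) and 1 (0.053, without low R:FR replicate 2).

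The other genes among the 12 lowest had a called fall in the canopy, except AT2G27420. AT5G53420 fell by 2.22 on the log2 scale in the canopy, with a difference of -2.22 ± 0.29 (limma adjusted p = 0.00059). AT5G42760 had both changes called, -0.88 ± 0.15 in the canopy and 1.21 ± 0.15 in low R:FR, and a difference of -2.09 ± 0.22 (0.00011). WSD1, a wax ester synthase gene of the cuticle, had -1.99 ± 0.43 (0.022) and AT3G03790 -1.91 ± 0.41 (0.02). AT2G27420 had -2.3 ± 0.49 (0.018) with neither change called. WSD1 lost its call in 2 leave-outs (highest adjusted p 0.067, without low R:FR replicate 1) and that of its canopy change in 5 (0.084, without canopy replicate 2). The call of the difference ended for AT2G27420 in 2 (0.055, without canopy replicate 2) and AT3G03790 in 4 (0.062, without low R:FR replicate 2).

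A difference of changes also takes in the gap between the control groups. Single plants at 37 d and control light plants at 29 d differed in 197 probe sets (0.866%), 126 higher (0.554%) and 71 lower (0.312%) in single plants, and experiment and age cannot be told apart in this gap. The gap is part of the difference through shared arrays, so its values are given beside it and not as a separate result. It was called for 43 of the 221 higher and 93 of the 252 lower differences. For AT3G15450, single plants were below control light by a log2 change of -3.07 ± 0.46, and canopy exceeded low R:FR in level by 1.98 ± 0.46 (limma adjusted p = 0.038). LTI30 had a gap of -0.97 between control groups and 0.38 between canopy and low R:FR levels (0.44), and GI one of 0.93 and -0.29 (0.48). Canopy and low R:FR levels differed in 334 of all probe sets (1.47%), and with the same sign in 95 of the 221 higher and 100 of the 252 lower differences. The level difference was not called for EXPA8 (0.88, adjusted p = 0.095), COR47 (0.22, 0.62) and AT5G20790 (-1.91, 0.33). Nor was it called for AT5G11070 (0.35, 0.72), AT3G03790 (-0.07, 0.97) and TINY2 (-0.0), whose gaps between control groups were -2.32, 1.85 and 1.45. For AKINBETA1 the level difference between canopy and low R:FR was 1.6 (0.0018), for AT2G41250 1.62 (0.0059), for AT1G06000 -1.74 (0.0002), for TBL26 -1.79 (0.0087) and for LHCB4.3 -1.2 (0.001).

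Low blue light and the combined treatment, the light groups outside the difference, share the control light arrays with low R:FR, so their changes are given only side by side. Low blue had 132 calls against control light (0.58%) and the combined treatment 514 (2.26%). AKINBETA1 changed by 1.34 ± 0.22 in low blue (limma adjusted p = 0.012), 0.0 in the combined treatment, -0.76 in low R:FR and 1.69 in the canopy. AT1G06000 changed by -1.29 ± 0.18 in low blue (0.0041), -0.93 ± 0.18 in combined (0.01), 0.62 in low R:FR and -2.06 in the canopy. LHCB4.3 changed by -1.07 ± 0.16 in low blue (0.0045) and -0.61 ± 0.16 in combined (0.054). In these 2 treatments, EXPA8 changed by 0.95 ± 0.24 (0.099) and 0.85 ± 0.24 (0.087), and UGT78D2 by -0.74 ± 0.16 (0.05) and 0.12 ± 0.16 (0.86). COR15A stood at -1.62 ± 0.22 in low blue (0.0038), against 1.13 in low R:FR and -0.29 in the canopy.

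Array medians lay between 1.59 and 1.65, and arrays within a group correlated at 0.9781 to 0.9939, the lowest value between control light replicates 1 and 3. A fit without these 2 arrays, a setting added once the values had been seen, kept 1 control light array and so has less precision. In it the called named genes had a median size of 0.94 of the main fit. Of the 38 named genes called by the naming rule, 28 were called in all 12 leave-outs. Markers of other tissues were named for 6 loci, none of them for xylem or epidermis, and the lists held no gene that defines petioles. RCA, of leaf blade mesophyll, lay between 10.86 and 11.21 on the 12 arrays. The root marker PYK10 lay at 0.69 to 2.64 on single plants, 2.85 to 3.69 in the canopy, 1.04 to 1.39 in control light and 1.04 to 2.42 in low R:FR, with a canopy change of 1.69 ± 0.45 (limma adjusted p = 0.041, lost in 7 of 12 leave-outs, highest adjusted p 0.19 without single replicate 1). The guard cell gene CHX20 had a canopy change of -2.1 ± 0.36 (0.0023) and a difference of -1.43 ± 0.51 (0.2). FMA and SPCH, of the same lineage, had differences of 0.03 and 0.17, and the phloem gene SWEET11 one of -0.04. Means over 18 arrays were 0.98 for SPCH and 1.29 for SWEET11, near the floor of the arrays, and 1.75 for FMA. Their small differences therefore say little about these cell types. The part of these markers in the results above was not tested, and in whole petioles fewer cells of a type and less RNA per cell cannot be told apart.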

How the data were processed

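Petiole RNA (100 ng, biotin-labelled) was hybridised to ATH1 arrays. The deposited log2 values of 22810 probe sets had been made with RMA, per the submitters' processing notes. The software, and which arrays were normalized with these, is not given in the sources used here. That values are log2 was checked on spiked bacterial transcripts (bioC, bioD and cre lay 2.51, 4.55 and 6.61 above bioB). Values below 1.5, the mean of 46.8% of probe sets, are compressed. No depth applies, and array number limits precision.

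After 64 control probe sets were removed, limma 3.58.1 (R 4.3.3) took in all 18 arrays, with 1 mean for each of 6 groups and no other term, then eBayes (12 residual and 4.41 prior degrees of freedom). Tests were two-sided, and Benjamini-Hochberg adjustment ran over 22746 probe sets within a comparison, with calls under 0.05. Of the probe sets, 13513 had 1 gene in the platform annotation, 503 had several, and 8730, which it does not list, are unnamed here. Symbols came from the RefSeq gene table, which did not match 77. A gene's probe set with the highest mean was used.

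The text names the 12 highest and 12 lowest called differences, up to 4 of each class with opposite or only low R:FR calls, up to 4 called members of each list (otherwise the largest), and 7 further genes (IAA29, HAT2, HYH, PORB, COR15A, GI and AT5G20790), and others are marked as chosen after values were seen or as list members. Of 27 lists, 21 had at least 3 named members, 1 had fewer and 5 had none. Members, lists and rules were chosen with earlier results of these data known. Replicate numbers were checked for pairing through deviations from group means. These correlated at 0.169, 0.334 and 0.0623 between single plants and canopy. Between control light and low R:FR they correlated at -0.0201, 0.0538 and 0.0273. Pairing by number is neither shown nor excluded by these values, above all for single plants and canopy, and the main fit used none. Alternatives were a fit to the 12 arrays, array weights, an intensity trend, a minimum mean of 2, median centring, quantile normalization, a replicate block, and leaving out each array.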

Additional observations from a re-analysis of the deposited data

How the results depend on the processing

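Of 38 called named genes, 0 changed sign under any alternative. The fit without control light replicates 1 and 3 kept 1 control light array, so it has less precision than the other fits. Sizes of called named genes in it had a median of 0.94 of the main fit. The call was lost for 10 when 1 array was left out, for 3 with 12 arrays only (COR47, COR15A and AT3G52740), for 2 with an intensity trend (AT3G52740 and ATG8C), and for ATG8C with median centring and with the replicate block. Without control light replicates 1 and 3 it was lost for 14, namely AT5G19120, AT4G14270, AT2G05540, AT3G23080, AT1G74940, LTI30, ATG8C, COR47, AT3G52740, GI, EXPB3, AT3G03790, AT2G27420 and AT5G20790. That setting left 185 called differences (83 higher, 102 lower), with 37 calls for low R:FR, 17 between the control groups, and 8 opposite, 136 canopy only, 11 low R:FR only and 30 neither. Array weights gave 763 (376 and 387), 457 for low R:FR, and 49 opposite, 130 low R:FR only and 162 neither. The replicate block gave 568 differences and 114 calls between the control groups. Whether its numbers pair samples is not settled, with 4 of 6 density and 2 of 6 light arrays correlating best with their own number. A fit to 12 arrays, an intensity trend, a minimum mean of 2, median centring and quantile normalization gave 507, 484, 536, 481 and 477.

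Over the 12 leave-outs differences numbered 322 to 591, higher ones 138 (without low R:FR replicate 1) to 289, lower ones 178 to 302, canopy calls 554 (without single replicate 3) to 1083, low R:FR calls 80 (without low R:FR replicate 2) to 472 (without control light replicate 1), and control group calls 91 (without control light replicate 2 or 3) to 217. Opposite calls ran from 14 to 49, canopy only from 188 (without canopy replicate 2) to 295, low R:FR only from 22 (without control light replicate 3) to 132 and neither from 46 to 127. In all, 265 probe sets (99 genes) were called throughout. Among the 57 genes chosen by the naming rule, signs turned for 4, none of them called: SWEET11 to 0.09 and HAT2 to -0.01 in the fit without 2 control light arrays, and over leave-outs SWEET11 ran from -0.15 to 0.05, HAT2 from -0.03 to 0.21, IAA29 from -0.31 to 0.13 and FMA from -0.14 to 0.19. AT4G24780, outside that rule and not called, turned from 0.03 to -0.02 without the 2 control light arrays. No named gene had a second probe set, so that alternative gave no value. The cause of these moves was not tested. The 3 arrays per group and the unnamed 8730 probe sets limit what lists can show.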

Other observations

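Further called genes with a symbol, all chosen after their values were seen, stood outside the lists. VTC4, of ascorbate synthesis, read 7.2, 6.67 and 7.32 on single plants, 5.57, 5.82 and 5.77 in the canopy, 6.27, 6.28 and 6.6 in control light, and 6.61, 6.45 and 6.08 in low R:FR. The canopy was lowest, and the light groups overlapped. Its difference was -1.34 ± 0.27 (limma adjusted p = 0.013, and 0.065 without control light replicates 1 and 3). SAT32 (-1.48 ± 0.28, adjusted p = 0.0086) and TINY2, an AP2 transcription factor gene (-1.45 ± 0.3, 0.015), also fell in the canopy, by 1.46 and 1.13 on the log2 scale, as did SBE2.2, of starch branching, by 0.54 with a difference of -0.76 ± 0.15 (0.0098). Without control light replicates 1 and 3, adjusted p was 0.082 for SAT32 and 0.1 for SBE2.2. UBC16, a ubiquitin-conjugating enzyme gene, and CP5 rose in the canopy by 1.17 ± 0.15 and 0.89 ± 0.11, with differences of 1.31 ± 0.21 (0.0033, and 0.051 without those 2 arrays) and 1.17 ± 0.15 (0.00057). THIC, of thiamine synthesis, had -0.87 ± 0.21 (0.041), a call lost in 9 of 12 leave-outs (highest adjusted p 0.1, without low R:FR replicate 2), with control light replicates 1 and 3 left out (0.31), with an intensity trend (0.056) and with a replicate block (0.058).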
